A study of Rattus norvegicus with 6 samples.

Results

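Mbp, Mobp, Mal, Cldn11, Cnp, Mag, Mog and Ugt8 are 8 genes of myelin and of the oligodendrocytes that make it, and their levels are described here in every pool of a rat study of acute alcohol intoxication. They were chosen by name, and for each gene the brightest of its features, by the mean over all arrays, was used. All 8 genes were found among 24213 gene names, and together they had 13 of the 26419 features measured. The arrays were 6 single-colour NimbleGen oligonucleotide arrays, and a feature summarised the probes of 1 transcript, 5 probes for each of the 13 features. The alcohol group held 3 pools of tissue from male Sprague-Dawley rats that had fasted for 12 h and were then dosed by gavage, 15 ml of 40% alcohol per kg. The brine group was made up of 3 pools from equally fasted rats that got saline, labelled brine, in the same amount. All rats were 8 to 10 weeks old and weighed 240 to 260 g, and each pool mixed the tissue of 3 of them, so that the spread between the rats of a pool cannot be seen. How long after gavage the tissue was taken is not stated in the labels. Levels are log2 values of the deposited RMA intensity (robust multi-array average, a linear intensity after background correction, normalization between arrays and summary over probes).

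Myelin is the stack of membrane that oligodendrocytes wrap around axons in the brain and spinal cord. Its proteins fall into those that hold the compacted membranes together, those at the edges and at the contact with the axon, and the enzymes that make its galactolipids, and their genes are switched on together when an oligodendrocyte matures. In the cerebellum myelin lies mainly in the white matter and around the deep nuclei, whereas the cortex is dominated by granule and Purkinje cells. In tissue RNA, fewer cells of a type and less RNA per cell cannot be told apart.

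The tissue is labelled as cerebellum, but 2 of the 6 pools held little RNA of the defining cerebellar neurons. The 10 Purkinje cell markers deviated from their mean over the 6 arrays by a median of -2.50 in alcohol pool 2 and -2.25 in brine pool 1, against 1.05 to 1.17 in the other 4 pools, and the 10 granule cell markers by -3.29 and -2.86 against positive medians of up to 1.72. Markers of hindbrain and brainstem neurons went the other way, with medians of 0.87 and 1.24 against -0.56 to -0.42 (12 genes). Array medians ran from 213 to 233 in intensity, and 66.9% to 68.8% of the features on an array had an intensity of 50 or more, the floor under which a level is called low. In the hindbrain list, 1 of the 12 genes reached that floor on every array. The labels do not separate these 2 pools from the rest, so levels are given pool by pool, and the comparisons of alcohol with brine are given with and without them.

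All 8 myelin genes were higher in alcohol pool 2 and brine pool 1 than in any of the other 4 pools. These 2 pools exceeded the highest of the other 4 by 0.59 to 2.31 on the log2 scale, depending on gene and pool. Of all 26419 features, 23.4% were likewise higher in both of these pools, and 30.5% of the 17906 features with a mean intensity of 50 or more. A gap of 1 log2 unit or more in both pools, counted from the highest of the other 4, was seen for 7 of the 8 genes against 4.75% of all features, and a gap of 1.5 or more for 4 of the 8 against 2.41%. The genes were chosen with this pattern known, so the counts are a description. The summed intensity of the 8 genes was 168898 in alcohol pool 2 and 172147 in brine pool 1, against 49071 to 74538 in the other 4. Of the sums in these 2 pools, 41739 and 43566 came from Mbp and 36215 and 36326 from Mobp.

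**Figure D1:**
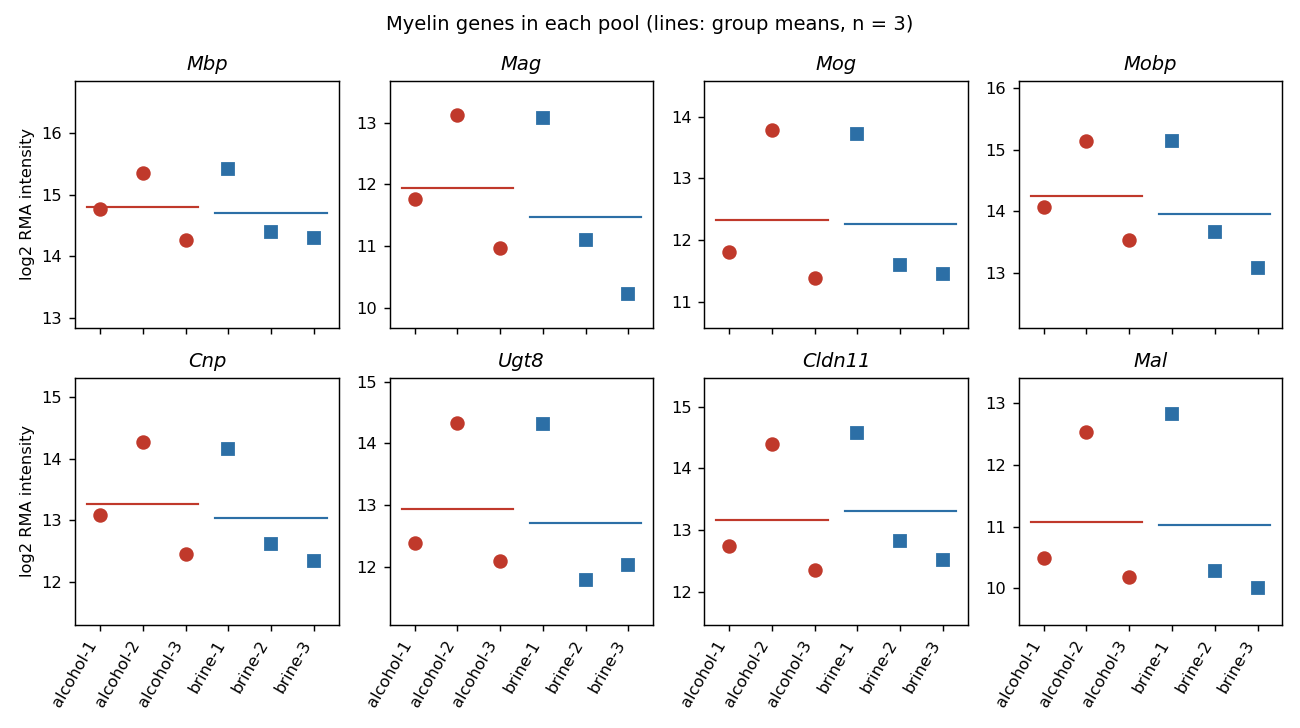
Log2 RMA intensity (y axis) of the brightest feature of each of the 8 myelin genes in each of the 6 pools (x axis); circles are alcohol pools, squares are brine pools, horizontal lines are the means of the 3 pools of a group, and every panel spans 4 log2 units. In each panel alcohol pool 2 and brine pool 1 sit above the other 4 pools, and the 2 group means lie within 0.48 of each other.

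Among the proteins of compact myelin, Mbp encodes myelin basic protein, which in mice is required for the inner faces of the membrane to adhere. Its brightest feature was at 14.76, 15.35 and 14.27 in alcohol pools 1, 2 and 3 and at 15.41, 14.40 and 14.30 in brine pools 1, 2 and 3. This was the smallest gap of the 8 genes, with alcohol pool 2 and brine pool 1 exceeding the other pools by 0.59 and 0.65. The feature lay at or above the 99.5th percentile of every array, whose brightest features were at 15.60 to 15.80, so little range was left above it. Whether the small gap comes from the top of the intensity range was not tested. Mobp encodes a small basic protein that also lies on the inner face of the membrane. It was at 14.08, 15.14 and 13.53 in the alcohol pools and at 15.15, 13.66 and 13.08 in the brine pools, in the order of pools 1, 2 and 3, which is used from here on. Both separated pools lay 1.07 above alcohol pool 1, the next highest. The second Mobp feature, annotated as isoform b, showed a wider gap of 1.85 in alcohol pool 2 and 1.71 in brine pool 1 and a narrower range among the other 4 pools (0.46, against 1.00 for the brighter feature).

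Cldn11 encodes claudin 11, the tight junction protein between the turns of central myelin. Its level was 12.74, 14.40 and 12.35 in the alcohol pools and 14.58, 12.83 and 12.51 in the brine pools. It was the 1 gene of the 8 for which brine pool 2, and not alcohol pool 1, was highest among the 4 pools with cerebellar markers. Mal encodes a proteolipid of membrane rafts that takes part in the transport of myelin components. Its level was 10.50, 12.54 and 10.19 in the alcohol pools and 12.82, 10.28 and 10.00 in the brine pools. The gap of Mal was the widest of the 8, at 2.03 and 2.31, so that its intensity in the lower of the 2 pools was 4.10 times that in the highest of the other 4. Mal is also made by Schwann cells, the myelinating cells of peripheral nerves. The list of Schwann cell and peripheral myelin genes (9 of 10 genes with a feature) deviated by 1.12 in brine pool 1 and 0.36 in alcohol pool 2, against -0.52 to -0.04 elsewhere. Of the 9 genes 5 were higher in both of these pools than in the other 4 and 4 were not, and 2 of the 9 reached an intensity of 50 on every array. The summed intensity of the list was 6060 and 4552, against 1501 to 2099, and 4030 and 3544 of it came from Pmp22, a gene that the brain also expresses. The part of Schwann cell RNA in the level of Mal was not tested.

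At the edges of the sheath, Cnp encodes a cyclic nucleotide phosphodiesterase that in mice keeps cytoplasmic channels through the sheath open. Its level was 13.09, 14.27 and 12.45 in the alcohol pools and 14.15, 12.62 and 12.34 in the brine pools. Mag encodes the adhesion protein on the membrane that faces the axon. Its level was 11.76, 13.12 and 10.96 in the alcohol pools and 13.08, 11.10 and 10.23 in the brine pools. Mag varied most among the 4 pools with cerebellar markers, over 1.53 log2 units from brine pool 3 to alcohol pool 1. Mog encodes a glycoprotein of the outermost surface of the sheath; its feature was named through the gene identifier, since the files give it the product name of another entry. Its level was 11.81, 13.78 and 11.38 in the alcohol pools and 13.72, 11.60 and 11.45 in the brine pools. Mog varied least of the 8 among those 4 pools (0.44) and was 1.97 and 1.90 above them in the 2 others. Ugt8 encodes the enzyme that makes galactosylceramide, the typical lipid of myelin. Its level was 12.39, 14.33 and 12.09 in the alcohol pools and 14.31, 11.79 and 12.03 in the brine pools. In linear terms the lower of the 2 separated pools exceeded the highest of the other 4 by 3.77 times for Ugt8, 3.74 for Mog, 2.96 for Cldn11, 2.49 for Mag and 2.09 for Cnp and Mobp.

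Within the 4 pools with cerebellar markers the myelin genes mostly had the same highest pool but not the same lowest one. Alcohol pool 1 was highest for 7 of the 8, against 22.6% of all features, and brine pool 2 for 1, against 31%. Brine pool 3 was lowest for 4 of the 8, against 23.5%, alcohol pool 3 for 3, against 25.5%, and brine pool 2 for 1, against 26%. The 8 genes deviated from their 6-array means by a median of -0.25 in alcohol pool 1, -0.57 in brine pool 2, -0.74 in alcohol pool 3 and -0.83 in brine pool 3. The same median was 1.29 in alcohol pool 2 and 1.36 in brine pool 1. Neither treatment group therefore held the highest or the lowest pools alone. Microglia markers (10 genes) were at -0.16 in alcohol pool 1 and -0.64 to -0.29 in the other 3 of these pools, and astrocyte markers (10 genes) at 0.00 against -0.35 to -0.16. Their part in the levels of the myelin genes was not tested.

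The profiles of the 8 genes over the pools were compared by the root mean square distance between log2 values centred on each gene's mean, where 0 means the same pattern and size. Mobp and Cnp were the most alike, at 0.11, followed by Mog and Ugt8 (0.16), Mog and Mal (0.17) and Mog and Cldn11 (0.19). Mbp and Mal were the least alike, at 0.71. The pools fall into separate clusters, so no correlation over them is given. The 10 genes outside the 8 whose profiles lay nearest to their mean profile, among 11324 named features above the median level, were Pllp, Sulf2, Mcam, Apod, Tf, Ano4, Csf1, Acat2, Cd82 and Fam110a, at distances of 0.07 to 0.12. The median distance of those features was 0.93, and the 8 genes themselves lay at 0.14 (Cnp) to 0.44 (Mbp). Pllp encodes plasmolipin, a proteolipid of myelin, and was at 11.44, 12.90 and 10.89 in the alcohol pools and at 13.05, 11.01 and 10.89 in the brine pools. Tf encodes transferrin, which oligodendrocytes make. Pllp, Apod and Tf, 3 of the 10, were on the lists of other myelin genes.

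**Figure D2:**
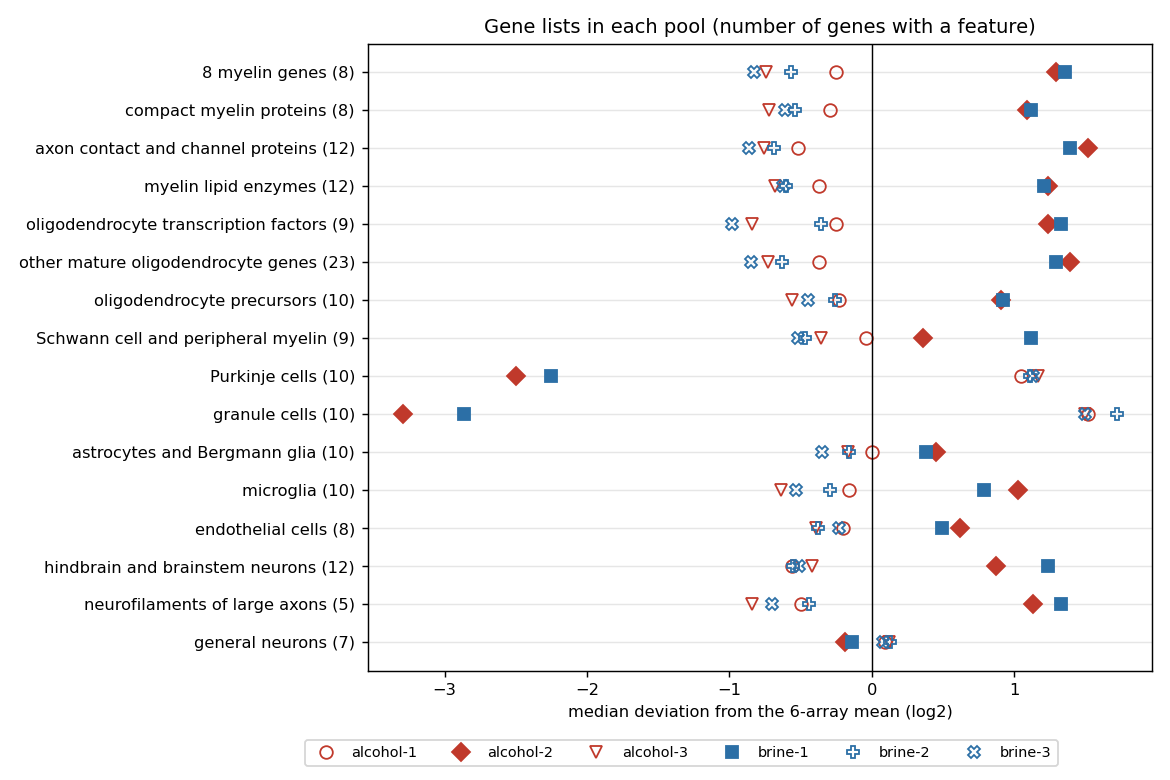
Median deviation of the genes of each list from their mean over the 6 arrays (x axis, log2), by list (y axis, with the number of genes that had a feature), for each pool; red symbols are alcohol pools, blue symbols are brine pools, and filled symbols are alcohol pool 2 and brine pool 1. The 8 myelin genes and the 5 lists of other myelin and oligodendrocyte genes under them lie above 1 in these 2 pools and below 0 in the other 4, and the Purkinje and granule cell lists lie the opposite way.

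Of the 64 other myelin and oligodendrocyte genes with a feature, of 65 listed, 55 were higher in both alcohol pool 2 and brine pool 1 than in the other 4 pools, and 6 were lower in both, against 25.1% of all features lower in both. Of 8 compact myelin proteins, 7 were higher. Tspan2, a tetraspanin, showed gaps of 1.85 and 1.83. Gpm6b, a proteolipid family gene also made by neurons and astrocytes, was the 1 lower, by 0.22 and 0.23 below the highest of the 4. Of 12 genes of axon contact, adhesion and channels, 10 were higher, among them Ermn, a cytoskeletal protein of the sheath, with gaps of 2.09 and 2.18, and Opalin, a membrane protein of oligodendrocytes, with 1.98 and 1.88. Nfasc, an adhesion gene also made by neurons, showed 0.53 and 0.62. Cntn2, an axonal adhesion gene, was lower. Of 12 lipid enzymes, 10 were higher and 0 were lower. Fa2h, which hydroxylates the fatty acids of galactolipids, showed gaps of 2.42 and 2.36, Cers2, a ceramide synthase, 1.51 and 1.35, and Ugcg, which makes glucosylceramide, was among those not higher, lying at -0.26 and -0.12 relative to the highest of the other 4 pools. Of 23 other genes of mature oligodendrocytes, 20 were higher and 3 lower, the latter being Septin4, Mvp and Pde4b, of which Mvp and Pde4b were named after their values were seen. Gpr37, a receptor of oligodendrocytes, showed gaps of 1.80 and 1.85. Of 10 oligodendrocyte precursor genes 7 were higher, including Pdgfra, the growth factor receptor of precursors (gaps of 1.36 and 1.33), while Ptprz1, Vcan and Tnr were not. Microglia markers (10 of 10), endothelial markers (8 of 8) and 4 of 5 neurofilament genes were higher as well, with 3, 0 and 4 genes at a gap of 1 or more, against 46 of the 64 myelin genes. Of 10 astrocyte genes 6 were higher and 3 lower. The part of these other cell types in the levels of the myelin genes was not tested.

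Of 9 transcription factors of the oligodendrocyte lineage with a feature, 8 were higher in alcohol pool 2 and brine pool 1 than in the other 4 pools. Among those 4, alcohol pool 1 was highest for 5 of the 9. Sox10, which drives myelin genes throughout the lineage, was at 10.16, 11.95 and 9.63 in the alcohol pools and at 11.74, 9.54 and 9.43 in the brine pools. Myrf, the factor of the maturing oligodendrocyte, was at 8.62, 10.69 and 8.00 in the alcohol pools and at 10.60, 8.26 and 7.83 in the brine pools. St18 was the exception, between 12.24 and 12.47 in the 4 pools with cerebellar markers and at 10.19 and 10.03 in the other 2. Since the 8 genes share a pattern and both factors are known regulators of myelin genes, the 250 bases upstream of the annotated starts were searched on both strands for the letters ACAAAG, a core that SOX proteins bind, and CTGGNAC, a core that MYRF binds. RefSeq promoters of the build GRCr8 were at hand for 7 of the 8 genes, Mog being the exception, and Mbp had 2 windows. ACAAAG was found for 4 of these 7 genes (Mobp, Mag, Cnp and 1 window of Mbp), against 16.3% of 33469 rat promoter windows of the same length. This count and the next are by gene and the shares by window, so Mbp, with 2 windows, had 2 chances to match. CTGGNAC was found for 5 of the 7 (Mag, Cnp, Cldn11, Mal and the other window of Mbp), against 14.8%. The Mbp window with CTGGNAC (chr18:78130402-78130651, plus strand) lies upstream of the one with ACAAAG (chr18:78209995-78210244, plus strand). Which Mbp transcripts begin at each start was not tested, so the CTGGNAC match of Mbp may not belong to the transcripts of the sheath. Mobp held 8 matches to ACAAAG, between 242 and 120 bases before the start, and 4 of the 33469 windows (0.012%) held 5 or more. Mag and Cnp each held 1 match to either core. The windows of Mobp (chr8:128746982-128747231, plus strand), Mag (chr1:95291045-95291294, minus strand) and Cnp (chr10:86011254-86011503, plus strand) are printed 5′ to 3′ in the gene's direction, ending at the base before the start, because they show the repeated core and the genes with both cores. Capitals mark the matches, where CTTTGT is ACAAAG on the other strand. A match is a description of the letters and not a site shown to be bound.
Mobp: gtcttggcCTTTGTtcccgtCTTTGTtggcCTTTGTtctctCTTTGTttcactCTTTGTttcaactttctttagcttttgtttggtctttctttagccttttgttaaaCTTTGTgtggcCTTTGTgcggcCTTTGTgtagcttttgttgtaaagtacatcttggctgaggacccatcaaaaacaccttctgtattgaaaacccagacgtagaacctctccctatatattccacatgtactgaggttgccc
Mag: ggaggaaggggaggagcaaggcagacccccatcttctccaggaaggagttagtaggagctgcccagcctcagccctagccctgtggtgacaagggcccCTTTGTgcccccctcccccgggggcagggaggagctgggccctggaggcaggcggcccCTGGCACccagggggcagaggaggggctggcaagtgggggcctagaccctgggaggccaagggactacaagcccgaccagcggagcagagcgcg
Cnp: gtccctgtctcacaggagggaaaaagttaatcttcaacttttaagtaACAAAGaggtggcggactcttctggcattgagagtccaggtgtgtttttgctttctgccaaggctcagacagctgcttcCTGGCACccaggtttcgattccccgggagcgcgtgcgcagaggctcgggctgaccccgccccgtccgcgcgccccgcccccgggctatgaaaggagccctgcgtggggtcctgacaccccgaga

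The comparison of alcohol with brine asks whether myelin genes responded to acute intoxication. Of the 8 genes, 7 had a higher mean in the alcohol pools and 1 (Cldn11) a lower one, against 45.9% of all features with a higher mean. The median difference was 0.16 on the log2 scale, against -0.02 over all features. The limma model over all features called 0 of the 8 at an adjusted p under 0.05, against 0% of 26419 features, and 0 of the 8 at an unadjusted p under 0.05, against 3.9%. The 3 alcohol values lay all above or all below the 3 brine values for 0 of the 8 genes, against 8.76% of features. Mag differed most, with 11.95 ± 1.09 (SD, n = 3) in the alcohol pools and 11.47 ± 1.46 (SD, n = 3) in the brine pools, a difference of 0.48 (SE 0.85, 95% interval -1.58 to 2.54, adjusted p = 1.00 in limma). For Mbp the means were 14.79 ± 0.54 and 14.71 ± 0.61 (SD, n = 3), a difference of 0.09 with an interval of -0.89 to 1.07. The interval was widest for Mal, at -2.22 to 2.32 around a difference of 0.05. For Mal a change of a few fold in either direction would therefore not have been detectable. The interval of Mbp was the narrowest of the 8. The standard errors of the 8 genes were 0.40 to 0.94, against a median of 0.27 over all features, and each group held 1 of the 2 separated pools. The median difference of the 8 genes was -0.37 without alcohol pool 2, 0.84 without brine pool 1, 0.33 without alcohol pool 1, 0.59 without alcohol pool 3, and -0.15 without brine pool 2 or brine pool 3.

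With a term for alcohol pool 2 and brine pool 1 in the model, a term that was chosen from these data, the estimates stayed the same by construction and the standard errors were 0.16 to 0.33. Again 0 of the 8 genes and 0% of features passed at an adjusted p under 0.05 in limma, with adjusted p values of 0.667 to 0.948 for the 8 genes. At an unadjusted p under 0.05, 0 of the 8 and 9.47% of features passed. The intervals then were -0.35 to 1.31 for Mag, -0.31 to 0.88 for Mobp, -0.28 to 0.74 for Cnp, -0.16 to 0.62 for Ugt8, -0.33 to 0.51 for Mbp, -0.32 to 0.46 for Mog, -0.40 to 0.49 for Mal and -0.56 to 0.27 for Cldn11. A rise or fall of 1 log2 unit therefore lay outside the interval of each gene other than Mag, under this model. Because the term was chosen from these data, the intervals may be too narrow. In alcohol pool 2 and brine pool 1, Mbp was at 15.35 and 15.41 and Mobp at 15.14 and 15.15. The brightest features of these 2 arrays were at 15.78 and 15.80, so little range was left there for a rise. In the 4 pools with cerebellar markers alone the median difference of the 8 genes was 0.25, against -0.02 over all features, with 7 of 8 higher, against 47% of features. Limma called 0 of the 8 and 0% of features there, and 0 of the 8 had an unadjusted p under 0.05 (the lowest was 0.158, for Mag), against 8.03% of features. Mag differed by 0.70 (SE 0.42) and Mobp by 0.43 (SE 0.30) there. Between the 2 separated pools alone, alcohol minus brine was 0.12 for Cnp, 0.04 for Mag, 0.07 for Mog, 0.02 for Ugt8, -0.00 for Mobp, -0.06 for Mbp, -0.18 for Cldn11 and -0.28 for Mal. Alcohol was above brine both in the 4 pools and between the 2 for 1 of the 8 genes, Ugt8, and 0 of the 8 were below in both, against 10.8% and 14.4% of features.

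**Figure D3:**
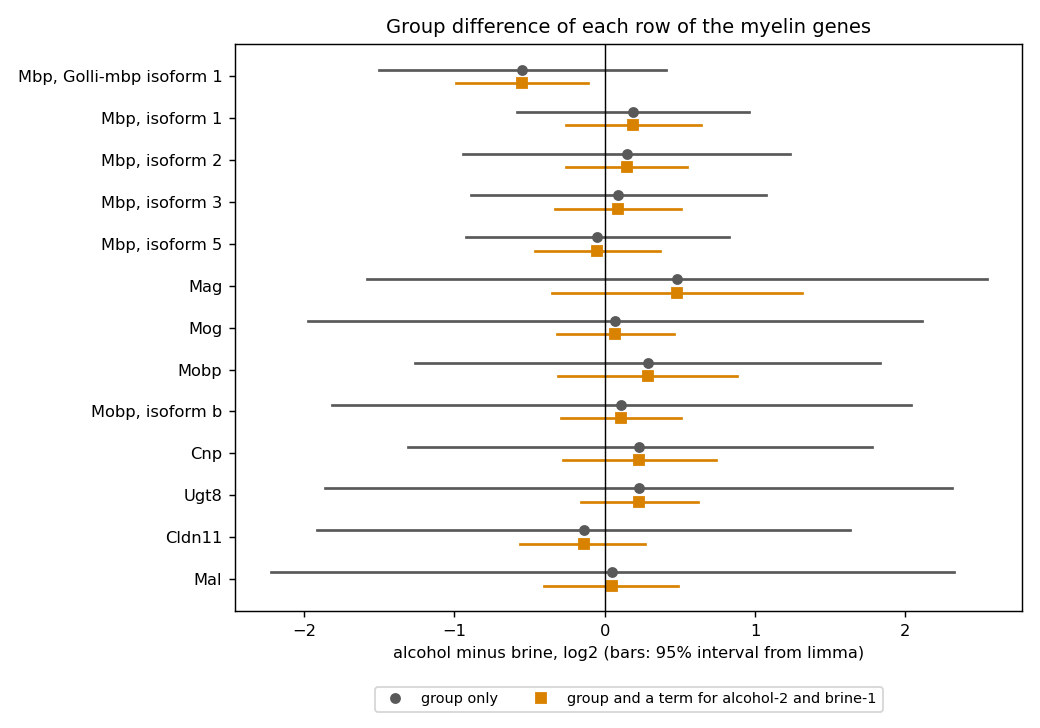
Difference of group means, alcohol minus brine, on the log2 scale (x axis) for the 13 features of the 8 genes (y axis), with 95% intervals from limma as bars; grey circles are the model with group alone and orange squares the model with a term for alcohol pool 2 and brine pool 1. All intervals include 0 apart from that of the Golli-Mbp feature under the second model, which runs from -0.99 to -0.11.

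Among the 64 other myelin genes the median difference was 0.06, and 44 of 64 had a higher mean with alcohol, against 45.9% of all features. Limma called 0 of 64 in either direction, and 0 had an unadjusted p under 0.05, against 3.9% of features. With the term for the separated pools 0 passed the adjusted threshold and 2 the unadjusted one, which 9.47% of features passed. In the 4 pools with cerebellar markers alone the median difference was 0.12 and 0 of 64 were called. These 2 were Gjc3, a connexin gene (0.79, adjusted p = 0.520 in limma with the term), and Gal3st1, which makes sulfatide from galactosylceramide (0.50, adjusted p = 0.491 in limma with the term), both named after their values were seen. Sox10 differed by 0.35 (SE 0.83) with all pools and by 0.41 in the 4 pools, and Myrf by 0.21 (SE 0.96) and 0.27.

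The Mbp locus gave 5 features, and each was higher in alcohol pool 2 and brine pool 1 than in the other 4 pools. The gaps were between 0.20 and 0.83 for the 4 features of classic Mbp, the isoforms of the myelin sheath. Alcohol pool 2 minus brine pool 1 was 0.39 for isoform 1, 0.02 for isoform 2, -0.06 for isoform 3 and -0.23 for isoform 5. Isoform 1 was thus the feature with the smallest gap in brine pool 1, at 14.69 there and 14.49 in alcohol pool 1. The fifth feature is annotated as Golli-Mbp isoform 1. Golli transcripts start upstream of classic Mbp, share exons with it and are also made by neurons and immune cells. The Golli-Mbp feature was at 6.88, 8.19 and 7.30 in the alcohol pools and at 8.47, 7.87 and 7.67 in the brine pools, with gaps of 0.32 in alcohol pool 2 and 0.60 in brine pool 1. Alcohol pools 1 and 3 were below brine pools 2 and 3, and alcohol pool 2 was below brine pool 1, an order that 14.4% of all features shared. The groups overlapped, since alcohol pool 2 lay above brine pools 2 and 3. Means were 7.45 ± 0.67 and 8.00 ± 0.42 (SD, n = 3), a difference of -0.55 (SE 0.39, adjusted p = 1.00 in limma), and it ranged from -0.92 to -0.26 without any 1 pool. With the term for the separated pools the standard error was 0.18 and the adjusted p 0.481 (unadjusted p = 0.0231 in limma), and in the 4 pools alone the difference was -0.68 (SE 0.22, adjusted p = 0.577 in limma). It did not pass the threshold in any of these models, and the feature was singled out after its values were seen. The labels and files do not say where its probes lie, so shared signal with classic Mbp was not tested.

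**Figure D4:**
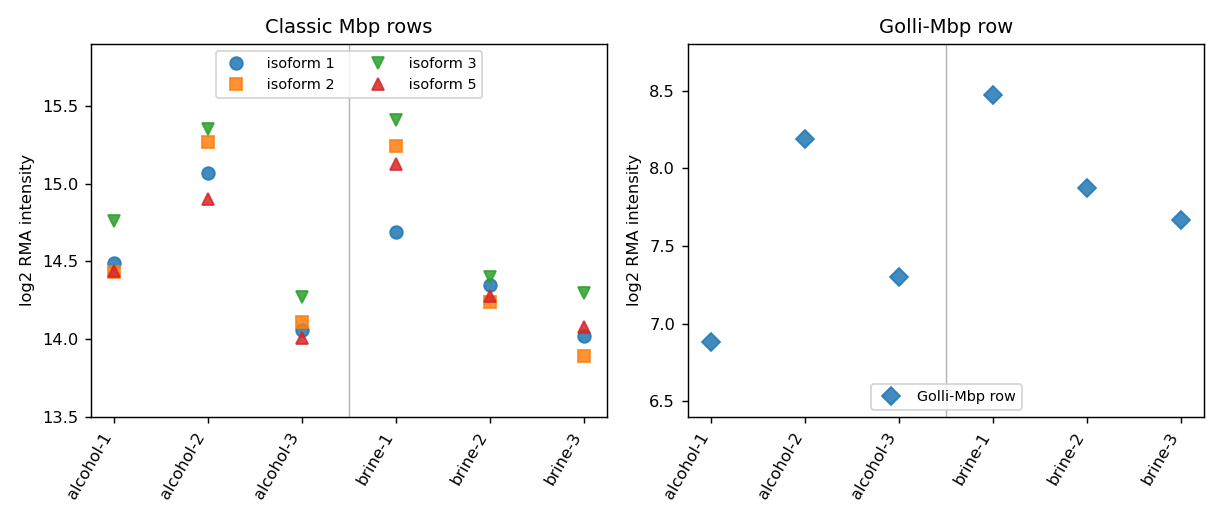
Log2 RMA intensity (y axis) of the 5 features of the Mbp locus in each pool (x axis), with the 4 classic isoforms on the left and the Golli-Mbp feature on the right; the vertical line separates alcohol from brine pools. All 5 features are highest in alcohol pool 2 and brine pool 1, and the lowest value of the Golli-Mbp feature is 6.88, in alcohol pool 1.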

How the data were processed

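Total RNA of 6 pools of rat tissue, 3 with alcohol and 3 with brine, was measured on 1 array each. For each array the authors deposited a file that gives every transcript a linear intensity, made with RMA per the submitters' processing notes, without a version. The labels and headers name no scanner software and do not say whether the 6 arrays were normalized together. A random-sequence control entry was left out, leaving 26419 features. The authors' value table held 18107 of them and matched within a relative difference of 9.16e-07. The SE_EXPRS score and the probe number, an other column deposited beside the intensity per the file headers, were not used as levels.

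The log2 of each deposited intensity was taken, with no normalization added. Names came from RefSeq (GRCr8) through the gene identifier for 20681 features, and otherwise from the files. The model was limma's lmFit with eBayes (limma 3.58.1, R 4.3.3) on group alone. Its tests are two-sided, adjusted by Benjamini-Hochberg over all features and read at 0.05. It was tested on simulated data. With 3 against 3 pools an exact permutation test cannot go below p = 0.10. Other steps ran in Python 3.11.15 (numpy 2.4.6, pandas 2.3.3, matplotlib 3.10.9). P-values set a group difference against the spread between the pools of a group. With group alone, that spread includes the distance of the 2 separated pools from the rest.

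The 8 genes, the gene lists, the motifs and the term for alcohol pool 2 and brine pool 1 were chosen with earlier results of these data known. Named genes were the 8, up to 6 genes per list with the highest mean level, and the 10 nearest profiles; others are said to be chosen after their values were seen. The list of transcription factors also held an enzyme, Carns1, which had no named feature. Some genes of the lists are counted with their list and not reported singly here. Because probes differ, levels of different features are not compared as amounts of RNA. Summed intensities are compared between pools only, and the brightest features weigh most in them. Precision is limited by the number of arrays.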

Additional observations from a re-analysis of the deposited data

How the results depend on the processing

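In none of these alternatives was any feature or any of the 8 genes called: the value table, centring on array medians, quantile normalization, the 4 pools alone, the replicate number as a block, the term for the separated pools, a filter on dim features, trend and robust options, array weights, a threshold of 0.1 and each pool left out gave 0 in limma, as did, for the 8 genes, averaging each gene over its features. Unadjusted p values under 0.05 numbered 1030 of 26419 features with all arrays and between 209 and 2893 in the alternatives. The 209 came from the filter on dim features, which kept only those above the median level. The value table gave 503 of 18107 features, so these 2 counts are not shares of 26419. With the replicate block there were 647, the median difference of the 8 genes stayed at 0.16, and no call changed. Deviations of same-numbered pools correlated at -0.63, -0.68 and 0.60, and those of alcohol pool 2 and brine pool 1 at 0.84. Each negative value involves 1 of these 2 separated pools, which carry different numbers. The correlations therefore cannot show whether same-numbered pools were paired. The median difference of the 8 genes was 0.13 to 0.25 in alternatives that kept all groups' pools or the 4 pools, and -0.37 to 0.84 without 1 pool. That of the other myelin genes ranged from -0.49 to 0.77 without 1 pool, around 0.06. Without 1 pool the single genes ranged from -0.19 to 0.44 (Mbp), -0.14 to 1.29 (Mag), -0.66 to 0.80 (Mog), -0.16 to 0.88 (Mobp), -0.27 to 0.79 (Cnp), -0.47 to 1.03 (Ugt8), -0.76 to 0.49 (Cldn11) and -0.68 to 0.94 (Mal), so that each changed sign. The mean of all Mbp features, Golli-Mbp included, turned its difference to -0.03. The count of 8 genes higher in alcohol pool 2 and brine pool 1 was 8 with centring, quantile normalization, the value table, averaging over a gene's features and the dimmest feature of a gene, alternatives added after seeing the data.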

Other observations

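Prph, which encodes peripherin, an intermediate filament of neurons with peripheral axons, was at 8.81 in brine pool 1 and 7.01 in alcohol pool 2, against 4.78 to 5.35 in the other 4 pools. Prx, a gene of Schwann cells, was at 6.23 in brine pool 1, and at 4.53 in alcohol pool 2, which lies within its range of 4.32 to 5.41 in the other 4 pools and under the intensity floor of 50. Egr2, a transcription factor of Schwann cells, was at 6.17 in brine pool 1 and, under that floor, at 5.31 in alcohol pool 2, within the 4.71 to 5.52 of the other 4. Pmp22, a protein of peripheral myelin that the brain also makes, was at 11.98 in brine pool 1 and 11.79 in alcohol pool 2. These genes were picked from the Schwann cell and neurofilament lists after their values were seen, and no test was made between 2 pools.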
